A study of Mus musculus with 33 samples.

Results

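The genes described here are 8 of the 21671 genes in the deposited expression table, chosen by name as the isoform genes at the main steps of glycolysis. They are the hexokinases Hk1 and Hk2, the phosphofructokinase subunits Pfkl and Pfkp, the aldolase Aldoa, the pyruvate kinases Pkm and Pklr, and the lactate dehydrogenase subunit Ldha. All 8 symbols were found in the table. The rule goes by gene name and uses no measured value, but the list was drawn up with earlier results of these data known. RNA-seq of 33 libraries from mouse liver and its tumours asked what MYC and β-catenin, alone and together, do to gene expression in hepatocytes soon after activation and in tumours.

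Every library came from a mouse of strain C57BL/6, and each library title carries a different animal number. In the short-term arm, 20 mice aged 6 to 8 weeks were given AAV8-TBG-CRE, in which an adeno-associated virus carries Cre recombinase behind the hepatocyte promoter TBG, and livers were taken 4 days later. The 5 wild-type livers of this arm received the virus too. A further 5 livers carried b-cat Ex3, a β-catenin allele that makes a stabilised protein once Cre has removed exon 3 (Ex3 livers). Another 5 carried R26-lslMYC, a MYC transgene in the Rosa26 locus that is silent until Cre removes a stop cassette (MYC livers), and 5 carried R26-lslMYC/b-cat Ex3 (MYC+Ex3 livers). In the tumour arm, 7 wild-type livers taken 4 days after intraperitoneal 4-OHT (4-hydroxytamoxifen) served as controls (4-OHT livers). The tumours were primary liver nodules, 3 of genotype Alb-CreERT2/R26-lslMYC (MYC tumours) and 3 of genotype Alb-CreERT2/R26-lslMYC/b-catEx3 (MYC+Ex3 tumours), with a Cre that works in albumin-expressing cells in the presence of tamoxifen. The labels give no age, time or treatment for the mice with nodules and name no Cre for the 4-OHT livers, so age and time cannot be told apart from tumour in this arm. Within each group the libraries are numbered only to name them.

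Glycolysis turns glucose into pyruvate. Hexokinase traps glucose in the cell, phosphofructokinase commits it to the pathway, aldolase splits the resulting sugar, pyruvate kinase makes pyruvate and ATP, and lactate dehydrogenase converts pyruvate to lactate. The adult hepatocyte is known for isoforms of its own, such as the pyruvate kinase made from Pklr, which suit a tissue that also makes glucose, while Hk2, Aldoa and Pkm are known from muscle, fetal liver and tumours. MYC binds the E-box CACGTG and is known to act on many glycolytic genes, and Pklr is a known target of the carbohydrate response factor ChREBP (gene Mlxipl), which binds a pair of E-box-like sites.

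A pair of members carries such letters in the 250 bases before a transcription start, and these promoters are shown because the study's factor is MYC and because Pklr moved against the other members. RefSeq on build GRCm38.p6 lists 14 starts for the 8 genes, and all 8 matched by symbol. The deposited values rest on the build mm9 per the submitters' processing notes, so the positions given here belong to the RefSeq build only. In the Pklr promoter (second start, chr3:89136373-89136622, forward strand) the capitals mark the paired element (CACGNG, 5 bases of any kind, then CNCGTG), which begins 170 bases before the start. In the Ldha promoter (first start, chr7:46845554-46845803, forward strand) the capitals mark the E-boxes CACGTG, which begin 145 and 48 bases before the start.
Pklr: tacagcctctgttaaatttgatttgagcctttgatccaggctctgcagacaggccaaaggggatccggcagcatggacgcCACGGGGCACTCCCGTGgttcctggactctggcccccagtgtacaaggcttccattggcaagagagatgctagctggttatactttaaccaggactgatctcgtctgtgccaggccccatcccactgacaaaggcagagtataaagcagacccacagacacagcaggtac
Ldha: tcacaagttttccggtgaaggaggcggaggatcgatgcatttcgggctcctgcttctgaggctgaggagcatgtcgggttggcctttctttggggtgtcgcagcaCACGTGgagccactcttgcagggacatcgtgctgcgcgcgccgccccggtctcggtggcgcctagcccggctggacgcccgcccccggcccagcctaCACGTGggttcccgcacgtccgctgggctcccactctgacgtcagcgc
CACGTG was found in 6.02% of 32851 mouse promoters of the same length (1978) and the paired element in 13 (0.0396%). Each motif reads the same on both strands, and in Pklr the paired element overlaps no CACGTG. Of the 14 starts of the members, 1 had an E-box and 1 the paired element. Such a match is a description of letters in this window and not a binding site.

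The short-term libraries held 3.75 to 7.31 M reads in genes (median 4.98 M) and the tumour-arm libraries 6.65 to 9.82 M (median 8.25 M). Levels are RPKM, a read number scaled to the length of the gene and to the library. Within groups and keratin sets, log2 reads rose by a median of 0.27 per log2 of library depth for the 50 most abundant genes of the short-term livers and by 1.28 for 6467 less abundant ones, so orders of genes by level and shares of one gene in a pair depend on depth and are given as descriptions. The highest RPKM of any gene was 220 to 396 in the short-term libraries and 42.9 to 67.5 in the tumour arm, so the arms are on different scales and were compared only within themselves. The b-cat Ex3 label was checked on the β-catenin target Axin2, which had a median of 3.24 RPKM in wild-type, 19.7 in Ex3, 2.49 in MYC and 16.6 in MYC+Ex3 livers, and of 1.39 in 4-OHT livers, 0.332 in MYC and 10.7 in MYC+Ex3 tumours. Proliferation genes (4 genes) summed to 2.59 to 10.8 RPKM in wild-type, 7.50 to 84.2 in Ex3, 91.6 to 241 in MYC and 160 to 277 in MYC+Ex3 livers. The summed RPKM of 6 hepatocyte markers was 1144 to 1298 in wild-type and 874 to 1428 in MYC+Ex3 livers, and was 191 to 255 in 4-OHT livers, 141 to 257 in MYC and 162 to 200 in MYC+Ex3 tumours. This sum rests mostly on abundant genes, so it may depend on depth too and is given as a description. Epidermal keratins summed to 3.95 to 23.8 RPKM in 10 short-term libraries (3 wild-type, 3 Ex3, 1 MYC, 3 MYC+Ex3) and to 0 to 0.398 in the other 10, and calls of the members that moved among keratin-free or keratin-bearing libraries are given beside them. MYC liver 5 carried both the female transcript Xist (86.1 RPKM) and the Y-linked gene Ddx3y (4.74 RPKM). It also held more of the muscle gene Acta1 (13.1 RPKM, at most 3.96 in the other short-term livers) and of Eno2 (9.31, at most 1.42). The muscle genes Ckm, Tnnt3 and Mylpf lay within the range of the other livers. Whether RNA of more than 1 animal or tissue was in this library was not tested. The tissue is bulk liver, in which fewer cells of a type and less RNA per cell cannot be told apart.

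Aldoa and Pkm were called higher in MYC livers and Pklr lower in MYC+Ex3 livers, and no member was called in Ex3 livers. Each of these calls was lost under another setting and without some single libraries. The differences of these genes pointed the same way in MYC and MYC+Ex3 livers, and no member was called between these groups. In both kinds of tumour Pfkl, Aldoa and Pkm rose, and Hk2 rose in MYC+Ex3 tumours. Ldha was not called in any of the 9 comparisons.

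A difference is given as log2, the difference of group means of log2(RPKM + 1), a scale that makes changes of low genes look smaller than they are, and a fold printed beside it is a fold of RPKM + 1. A gene is called at an adjusted p under 0.05 by limma with Benjamini-Hochberg adjustment over all genes tested. Where a pair of numbers stands in brackets after a gene, group or library, the first is a log2 difference and the second its adjusted p by limma. In MYC against wild-type livers 2 of the 8 members were called, both higher, beside 22.3% of the 13688 genes tested (16.9% higher and 5.36% lower). Their median difference was 0.13 log2, beside 0.07 for all genes. In MYC+Ex3 against wild-type livers 1 member was called, lower, beside 24.1% of all genes (17.9% higher and 6.18% lower), and the median was 0.05 for the members and for all genes. Both shares of members were near or below the share of all genes.

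In Ex3 against wild-type livers 0 of the 8 members were called, and 0 had an unadjusted p under 0.05, beside 18 genes called by limma in all (0.132%). Their differences ran from -0.12 log2 for Pklr (95% interval -0.43 to 0.19) to 0.34 for Pfkl (-0.20 to 0.87). In MYC+Ex3 against MYC livers 0 members were called and 0 had an unadjusted p under 0.05, beside 0.19% of all genes called and 0.276% in the authors' deposited table, with differences from -0.29 for Hk2 (-0.80 to 0.23) to 0.04 for Ldha (-0.24 to 0.32). In MYC+Ex3 against Ex3 livers 0 members were called, beside 21.1% of all genes (16.4% higher and 4.7% lower), and 2 had an unadjusted p under 0.05. These were Pkm, with 0.68 log2 (limma, adjusted p = 0.0631, called with only those groups fitted at 0.0496, with keratin as a term at 0.0498 and without MYC+Ex3 liver 1 at 0.034), and Pklr, with -0.35 log2 (adjusted p = 0.0976). The interaction of MYC and Ex3, the test of whether the alleles together differed from the sum of each alone, called 0 of the 8 members and 0 of all genes by limma, of which 132 had an unadjusted p under 0.05. Its values for the members ran from -0.31 log2 for Pfkl (95% interval -1.06 to 0.45) to 0.04 for Pklr (-0.39 to 0.48), and these intervals hold differences as large as those of MYC itself.

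In the tumour arm all 8 members were in the test, but Hk1 and Pfkp entered it only through the tumours, since 0 of the 7 4-OHT livers reached 1 RPKM of either, and they are not counted as support. In MYC tumours against 4-OHT livers 5 members were called, 4 higher (Pfkp among them) and 1 lower, beside 49.8% of 11854 genes (36.2% higher and 13.7% lower). In MYC+Ex3 tumours 5 were called, all higher (Hk1 among them), beside 60.6% of genes (42.3% higher and 18.4% lower). The median difference of all 8 was 0.58 and 0.59 log2, beside 0.19 and 0.23 for all genes. Without Hk1 and Pfkp, 4 of 6 members were called in each comparison, with medians of 0.58 and 1.03 log2. In MYC+Ex3 against MYC tumours 1 member was called, Hk2, beside 4.13% of all genes (2.02% higher and 2.1% lower). Against 4-OHT livers the shares of members called were near or not far above the shares of all genes. The libraries of the groups compared did not overlap at all for 0 members in Ex3 (1.59% of all genes), MYC (13.3%) and MYC+Ex3 livers (17.2%) against wild type, for 0 in MYC+Ex3 against MYC livers (0.679%) and for 1, Pklr, in MYC+Ex3 against Ex3 livers (20.3%). They did not overlap for 3 members in MYC tumours (Pfkl, Aldoa and Pkm, beside 35.2% of all genes), for 7 in MYC+Ex3 tumours (all but Ldha, with Hk1 and Pfkp among them, beside 56.1%) and for Hk2 alone between the tumours (16.3%). The comparisons within an arm share their control livers, so their values are given side by side and are not independent of each other.

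When each library was rescaled to the median ratio of its genes, this moved the median of all genes from 0.19 to 0.01 log2 in MYC tumours and from 0.23 to 0.04 in MYC+Ex3 tumours. The share of all calls that were higher went from 75.9% to 59.1% in MYC livers, from 74.4% to 61.2% in MYC+Ex3 livers, from 77.7% to 67.0% in MYC+Ex3 against Ex3 livers, from 72.6% to 53.4% in MYC tumours and from 69.7% to 55.2% in MYC+Ex3 tumours. Under it the tumour differences of Pfkl were 0.84 and 1.15 log2, of Aldoa 0.44 and 0.48 and of Pkm 0.82 and 1.16, each still called. That of Pklr was -0.93 in MYC tumours (limma, adjusted p = 0.00749) and -0.76 in MYC+Ex3 tumours (adjusted p = 0.0175), the latter not called before rescaling.

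**Figure D1:**
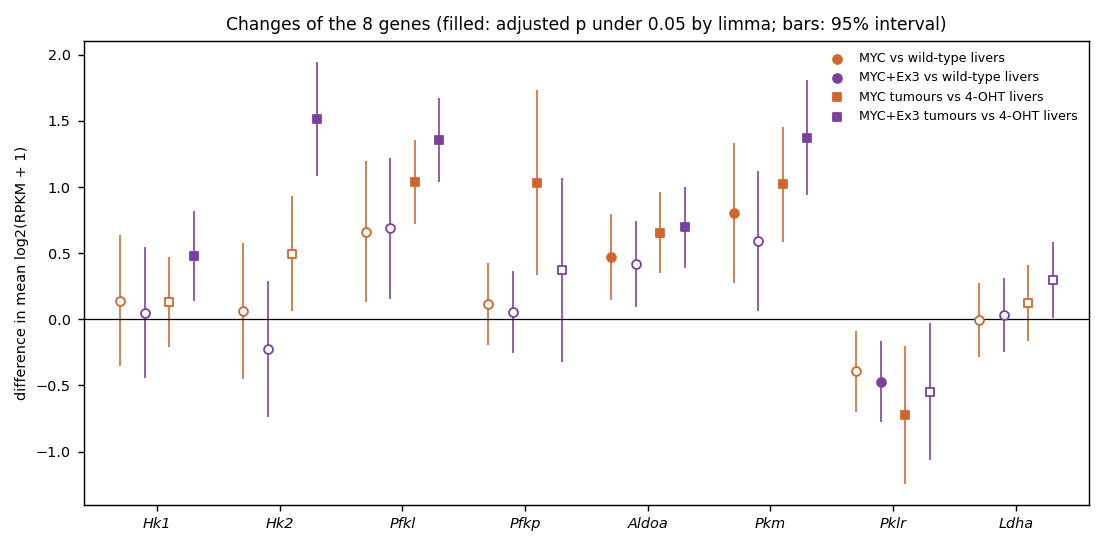
Difference in mean log2(RPKM + 1) from the control livers (vertical axis) for the 8 genes (horizontal axis), with 95% intervals from limma, in MYC and MYC+Ex3 livers (circles) and tumours (squares). Filled points passed an adjusted p under 0.05, which 2 genes did in MYC livers, 1 in MYC+Ex3 livers and 5 in each kind of tumour.

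Hexokinases were low in every short-term group, and neither Hk1 nor Hk2 was called there. Hk1 makes the hexokinase of most tissues, brain and red cells among them. It stood at 0.665, 0.416, 1.40, 0.927 and 0.696 RPKM in wild-type livers and at 0.757, 0.721, 0.815, 0.263 and 3.33 in MYC livers. MYC liver 5 stood above all other short-term libraries, and the other 4 MYC livers lay below the highest wild-type liver. The difference was 0.14 log2 with MYC liver 5 and -0.14 without it, and was called in neither case. Ex3 livers held 0.847 to 1.55 and MYC+Ex3 livers 0.545 to 1.27 RPKM, overlapping the wild-type livers. These levels rest on 9 to 168 reads per library, so that small differences were not detectable at this depth.

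Hk2, the hexokinase of muscle and fat, showed the same library standing apart. Wild-type livers held 1.35, 0.896, 1.65, 1.68 and 1.57 RPKM, and MYC livers held 0.690, 1.40, 1.36, 0.999 and 4.23, the last again MYC liver 5. MYC+Ex3 livers held 0.911, 0.570, 0.822, 2.42 and 0.979, and Ex3 livers 1.55, 1.20, 1.02, 0.901 and 1.50. Apart from MYC liver 5 and MYC+Ex3 liver 4, every MYC and MYC+Ex3 liver lay within or below the wild-type range. The difference in MYC+Ex3 livers was -0.23 log2 and was not called.

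Among the tumours Hk2 separated the kinds of tumour. The 4-OHT livers held 0.702 to 1.49 RPKM (median 1.08), the MYC tumours 1.05, 1.79 and 3.44, and the MYC+Ex3 tumours 4.78, 3.94 and 6.39. All 3 MYC+Ex3 tumours lay above all MYC tumours and all 4-OHT livers, while MYC tumour 1 lay within the 4-OHT range. Against 4-OHT livers Hk2 rose by 1.51 ± 0.202 log2 (SE) in MYC+Ex3 tumours, 2.86-fold on the RPKM + 1 scale (5.03 ± 1.25 against 1.099 ± 0.285 RPKM, SD, n = 3 and 7, limma adjusted p = 2.24e-05), and the difference in MYC tumours was 0.50 log2 (adjusted p = 0.0535). The latter was called without MYC tumour 1 (0.76, 0.00478), without 4-OHT liver 4 (0.54, 0.0477) and with sex as a covariate (0.64, 0.0197). The test between the tumours gave 1.02 ± 0.239 log2, 2.02-fold on the same scale (limma, adjusted p = 0.0283). That call was lost without MYC tumour 1 (0.76 log2, adjusted p = 0.0586), without MYC+Ex3 tumour 1 (1.04, 0.0784) or without MYC+Ex3 tumour 3 (0.86, 0.134), by limma in each case. It was lost too when only the 6 tumours were fitted (1.02 log2, adjusted p = 0.257) and with no filter on low genes (0.0574).

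Hk1 in the tumour arm was 0.396 to 0.719 RPKM in 4-OHT livers (median 0.613), 0.272, 1.38 and 0.722 in MYC tumours and 1.41, 1.31 and 0.940 in MYC+Ex3 tumours. The MYC+Ex3 tumours lay above all 4-OHT livers, and MYC tumours lay on both sides of them. The difference in MYC+Ex3 tumours was 0.48 ± 0.159 log2 (limma, adjusted p = 0.017), and it was not called after rescaling (0.38 log2, adjusted p = 0.0568) or against the S14 (0.44, 0.0763) or S15 (0.53, 0.0711) animal number series of 4-OHT livers alone. In MYC tumours it was 0.13 log2, not called, and 0.35 without MYC tumour 1 (limma, adjusted p = 0.0449). Hk1 was not tested without MYC tumour 2 or MYC+Ex3 tumours 1 or 2, since fewer than 3 libraries then reached 1 RPKM. Genes of red cell precursors, in which Hk1 is known to be used, were also higher in the libraries with most Hk1. The red cell membrane gene Slc4a1 was at 16.5 to 24.6 RPKM in MYC+Ex3 tumours and at 18.8 in MYC tumour 2, beside 0.196 to 0.808 in 4-OHT livers. The summed RPKM of 3 red cell markers was 13.0 to 30.3 in 4-OHT livers, 10.3 to 49.2 in MYC tumours and 52.7 to 65.5 in MYC+Ex3 tumours, and their part in the Hk1 difference was not tested.

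**Figure D2:**
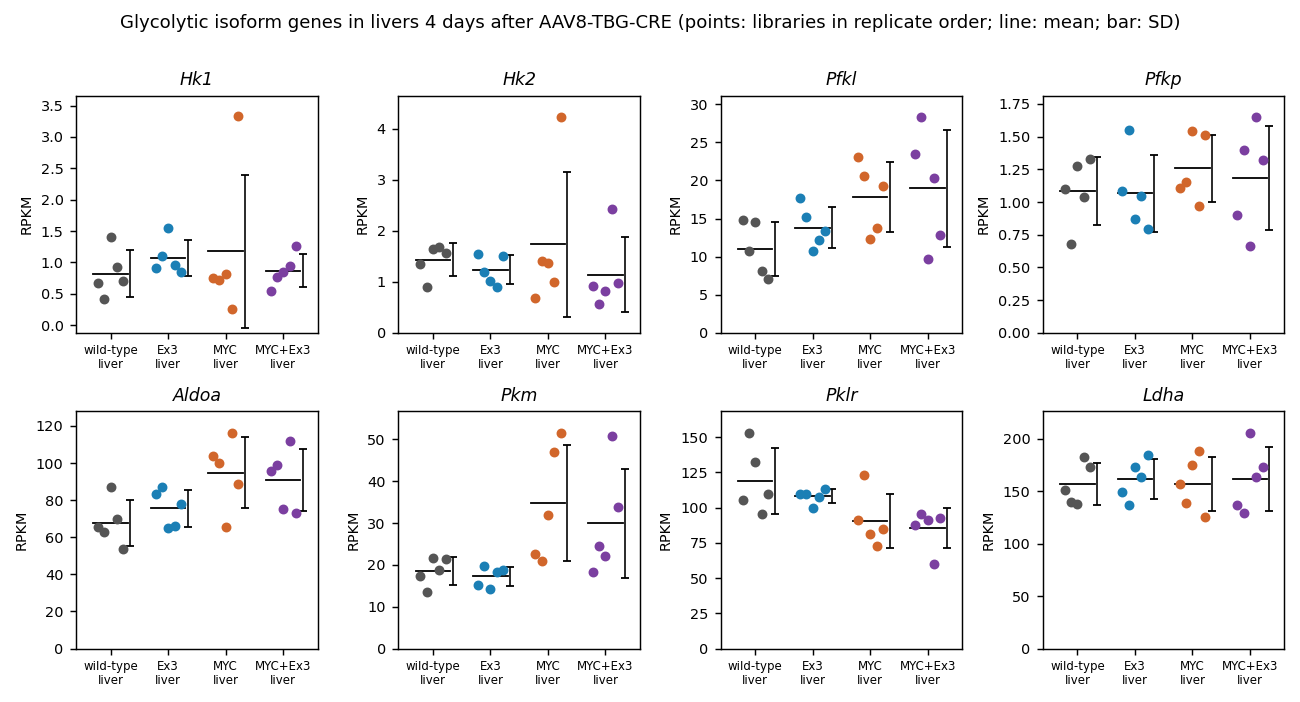
RPKM of each of the 8 genes (vertical axis, linear) in the 20 short-term livers, by group, with points for libraries and bars for mean ± SD of 5. The 4 groups overlap for most genes, MYC liver 5 stands apart for Hk1 (3.33) and Hk2 (4.23), and Pkm spreads upward in MYC and MYC+Ex3 livers.

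Of the phosphofructokinase subunits, Pfkl, the liver form, rose in both kinds of tumour, and Pfkp, the platelet form, stood out in a single tumour. Pfkl stood at 14.7, 10.7, 14.5, 8.08 and 7.06 RPKM in wild-type livers, and at 23.0, 20.6, 12.4, 13.7 and 19.3 in MYC livers. MYC+Ex3 livers held 23.5, 28.3, 9.68, 20.3 and 12.9 RPKM. Of the MYC and MYC+Ex3 livers 6 of 10 lay above the highest wild-type liver, and the groups overlapped. The difference was 0.66 ± 0.256 log2 in MYC livers (limma, adjusted p = 0.0689) and 0.69 log2 in MYC+Ex3 livers (adjusted p = 0.0554), neither called. The latter was called in the keratin-free libraries alone (0.78 log2, limma adjusted p = 0.0481), with the filter at 5 RPKM (0.69, 0.0478) and with keratin as a term (0.69, 0.00734). Leaving out a single library gave calls as well: 0.77 log2 in MYC livers without wild-type liver 1 (adjusted p = 0.0455) or 3 (0.0487) and 0.78 without MYC liver 3 (0.0424), all by limma. In MYC+Ex3 livers limma gave 0.80 log2 without wild-type liver 1 (adjusted p = 0.0366), 0.79 without wild-type liver 3 (0.0391), 0.89 without MYC+Ex3 liver 3 (0.0108) and 0.80 without MYC+Ex3 liver 5 (0.0357).

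Ex3 livers held 17.6, 15.2, 10.8, 12.2 and 13.3 RPKM of Pfkl, of which 2 lay above the wild-type range and 3 within it. Among tumours and their controls, Pfkl stood at 4.76 to 6.44 RPKM in 4-OHT livers (median 5.49), at 11.1, 10.2 and 16.6 in MYC tumours and at 13.8, 14.03 and 19.8 in MYC+Ex3 tumours. Every tumour lay above every 4-OHT liver. Pfkl rose by 1.04 ± 0.149 log2 in MYC tumours, 2.05-fold (12.6 ± 3.44 against 5.53 ± 0.568 RPKM, SD, n = 3 and 7, limma adjusted p = 8.53e-05), and by 1.36 ± 0.149 log2 in MYC+Ex3 tumours, 2.56-fold (15.9 ± 3.39 RPKM, adjusted p = 4.45e-06). Both calls held in every alternative run and without any single library.

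Pfkp was near 1 RPKM in all short-term groups, from 0.661 to 1.65 over the 20 livers and from 23 to 95 reads. Its differences were 0.12 log2 in MYC and 0.06 in MYC+Ex3 livers, neither called. In the tumour arm Pfkp stood at 0.318 to 0.583 RPKM in 4-OHT livers (median 0.486), at 0.424, 1.68 and 6.31 in MYC tumours and at 1.19, 0.931 and 0.681 in MYC+Ex3 tumours. MYC tumour 3 held several times more than any other library of the arm, and MYC tumour 1 lay among the controls. The difference in MYC tumours was 1.03 ± 0.326 log2 (2.81 ± 3.10 against 0.485 ± 0.0893 RPKM, SD, n = 3 and 7, limma adjusted p = 0.0171). It was not called against the 4-OHT livers of either series alone, S14 (0.99 log2, limma adjusted p = 0.0729) or S15 (1.09, 0.0878). Without MYC tumour 2 or 3 Pfkp was not tested, since fewer than 3 libraries then reached 1 RPKM. Whether the call depends on MYC tumour 3 was therefore not tested. Between the tumours Pfkp differed by -0.66 log2 (limma, adjusted p = 0.407), and by -1.20 without MYC tumour 1 (adjusted p = 0.0227). Of 4 skeletal muscle markers in MYC tumour 3, Ckm was at 13.6 RPKM, Mylpf at 1.94, Tnnt3 at 0.0725 and Acta1 at 0. Among the controls all 4 were highest in 4-OHT liver 1. There Ckm was at 6.37 RPKM, Mylpf at 6.65, Tnnt3 at 7.16 and Acta1 at 12.8. The part of such cells in the Pfkp level, and in the levels of this control, was not tested. As a share of the summed RPKM of Pfkp and Pfkl, Pfkp had a median of 8.06% in 4-OHT livers (5.37% to 10.9%), 14.2% in MYC tumours (3.68% to 27.6%) and 6.22% in MYC+Ex3 tumours (3.33% to 7.93%), and the groups overlapped. RefSeq places Pfkp in overlap with Pitrm1, another gene of the table, so reads of the overlap could be counted for either.

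**Figure D3:**
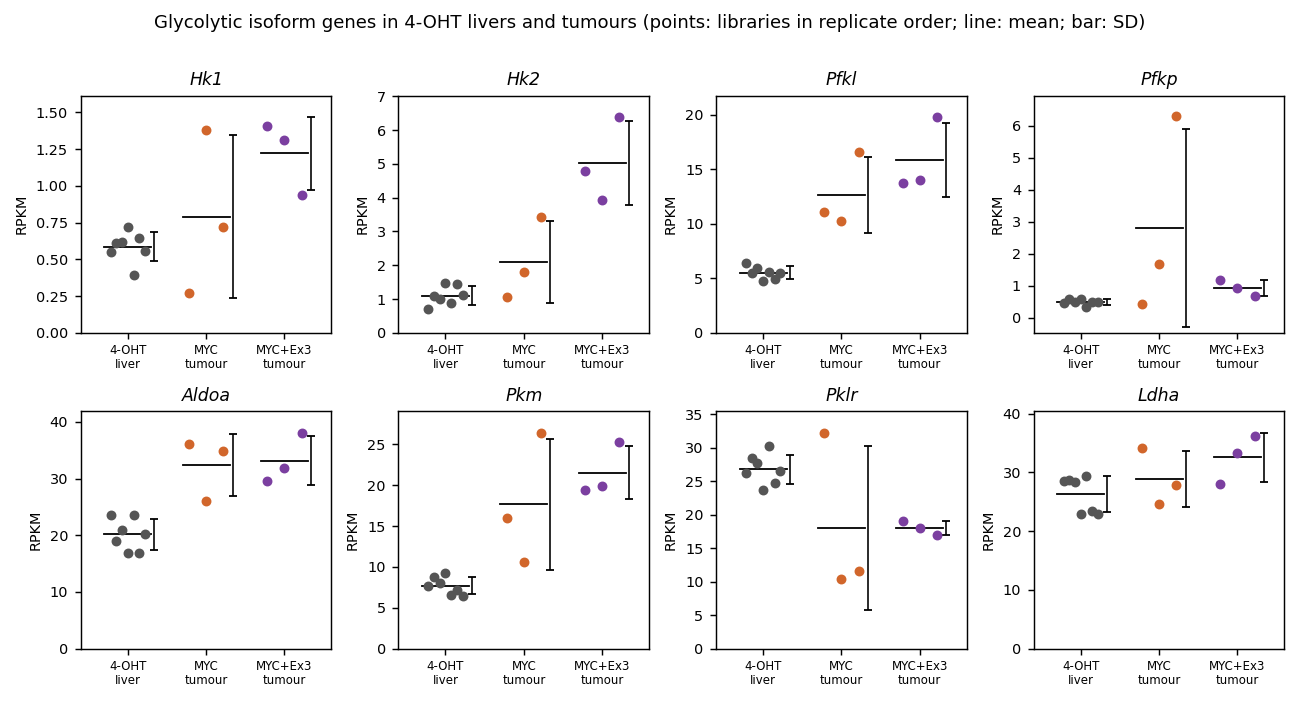
RPKM of each of the 8 genes (vertical axis, linear) in the 7 4-OHT livers, 3 MYC tumours and 3 MYC+Ex3 tumours, with points for libraries and bars for mean ± SD. Pfkl, Aldoa and Pkm lie above the controls in all 6 tumours, Hk2 is highest in the MYC+Ex3 tumours, and a single MYC tumour holds most Pfkp (6.31).

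Aldoa, the aldolase of muscle and most growing cells, rose in both kinds of tumour and, close to the threshold, in MYC livers. Wild-type livers held 65.6, 63.0, 87.0, 69.8 and 53.6 RPKM. MYC livers held 104, 100.1, 65.4, 116 and 88.7, of which 4 of 5 lay above the highest wild-type liver. MYC+Ex3 livers held 95.5, 98.8, 75.1, 112 and 73.1. The groups overlapped through MYC liver 3 and through MYC+Ex3 livers 3 and 5. Aldoa rose by 0.47 ± 0.156 log2 in MYC livers, 1.39-fold (94.8 ± 19.2 against 67.8 ± 12.3 RPKM, SD, n = 5 and 5, limma adjusted p = 0.0354). The difference in MYC+Ex3 livers was 0.42 log2 (90.9 ± 16.5 RPKM, adjusted p = 0.0578), not called. It was called with keratin as a term (0.42, 0.0456) and without wild-type liver 3 (0.51, 0.0247), MYC+Ex3 liver 3 (0.48, 0.0383) or MYC+Ex3 liver 5 (0.49, 0.0331). The MYC call was lost with keratin as a term (0.42, 0.0615), after rescaling (0.37, 0.0797), in the keratin-free libraries (0.22, 0.508), with no filter (0.47, 0.0543) and with only those groups fitted (0.47, 0.0748). It was lost as well without any of 7 of the 10 libraries, by limma. The values were 0.46 log2 without wild-type liver 1 (adjusted p = 0.0576), 0.45 without wild-type liver 2 (0.0725), 0.48 without wild-type liver 4 (0.052) and 0.39 without wild-type liver 5 (0.0995). They were 0.43 without MYC liver 1 (0.0878), 0.44 without MYC liver 2 (0.0655) and 0.39 without MYC liver 4 (0.104).

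Aldoa stood at 16.8 to 23.5 RPKM in 4-OHT livers (median 20.2), at 36.1, 26.1 and 34.8 in MYC tumours and at 29.6, 31.8 and 38.0 in MYC+Ex3 tumours. No tumour overlapped the controls. Aldoa rose by 0.66 ± 0.143 log2 in MYC tumours (32.3 ± 5.44 against 20.1 ± 2.80 RPKM, SD, n = 3 and 7, limma adjusted p = 0.00191) and by 0.70 ± 0.143 in MYC+Ex3 tumours (33.2 ± 4.37 RPKM, adjusted p = 0.000788). Both calls held in every alternative and without any single library.

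Pyruvate kinase was the step at which the members moved in opposite directions. Pkm, whose M1 and M2 products are known from muscle and from proliferating cells and tumours and are not separable in these gene totals, rose in MYC livers and in both kinds of tumour. Pklr, the liver and red cell gene, was called lower in MYC+Ex3 livers and MYC tumours. It was lower too, without a call, in MYC livers (-0.39 log2) and MYC+Ex3 tumours (-0.55 log2). Pkm stood at 17.4, 13.5, 21.5, 18.7 and 21.4 RPKM in wild-type livers and at 22.6, 20.8, 32.0, 47.0 and 51.5 in MYC livers. MYC+Ex3 livers held 18.3, 24.5, 22.1, 50.9 and 33.8. Ex3 livers held 15.2, 19.7, 14.3, 18.3 and 18.7, all within the wild-type range. Of the MYC livers 4 of 5 lay above all wild-type livers, and so did 4 of the 5 MYC+Ex3 livers, with 47.0 to 51.5 RPKM in 3 of these libraries. Pkm rose by 0.80 ± 0.254 log2 in MYC livers, 1.74-fold (34.8 ± 13.96 against 18.5 ± 3.29 RPKM, SD, n = 5 and 5, limma adjusted p = 0.0275), and the difference in MYC+Ex3 livers was 0.59 log2 (29.9 ± 13.0 RPKM, adjusted p = 0.0982). The MYC call was lost in the keratin-free libraries (0.60 log2, limma adjusted p = 0.275). It was lost as well without wild-type liver 2 (0.70, 0.0749), MYC liver 4 (0.67, 0.0851) or MYC liver 5 (0.64, 0.0702), each by limma.

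Of the 6 macrophage markers in the table, Cd68 had a higher median in MYC and MYC+Ex3 than in wild-type livers and the other 5 had lower ones. Cd68 stood at 11.8 to 34.7 RPKM in wild-type livers (median 19.9), at 28.0 to 55.9 in MYC livers (median 38.8) and at 18.3 to 67.1 in MYC+Ex3 livers (median 27.6). It was at 55.9 in MYC liver 5 and at 67.1 in MYC+Ex3 liver 4, where Pkm was highest in each group, and at 28.0 in MYC liver 4, where Pkm was 47.0. The median of Emr1 was 26.4 RPKM in wild-type, 19.3 in MYC and 13.3 in MYC+Ex3 livers, and that of Csf1r was 34.1, 25.6 and 20.5. The summed RPKM of the 6 markers was 168 to 333 in wild-type, 231 to 283 in Ex3, 204 to 344 in MYC and 194 to 345 in MYC+Ex3 livers. In the tumour arm this sum was 74.1 to 102 in 4-OHT livers, 31.9 to 79.0 in MYC and 44.4 to 50.7 in MYC+Ex3 tumours. Cd68 was at 11.9 to 17.3 RPKM in 4-OHT livers, 12.1 to 25.1 in MYC and 12.8 to 16.0 in MYC+Ex3 tumours. Macrophages are known to express Pkm, and their part in these values was not tested.

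Pklr stood at 105, 153, 132, 95.2 and 110 RPKM in wild-type livers, higher than Pkm in every one of them. MYC livers held 91.3, 123, 81.6, 72.4 and 84.9, of which 4 of 5 lay below the lowest wild-type liver. MYC+Ex3 livers held 87.6, 95.5, 91.5, 60.3 and 92.8, of which 4 of 5 did. Ex3 livers held 109, 110, 99.7, 108 and 113, all within the wild-type range. Pklr fell in MYC+Ex3 livers, with -0.47 ± 0.147 log2, 1.39-fold lower (85.6 ± 14.4 against 119 ± 23.3 RPKM, SD, n = 5 and 5, limma adjusted p = 0.0241), and the difference in MYC livers was -0.39 ± 0.147 log2 (90.7 ± 19.3 RPKM, adjusted p = 0.0605). The MYC+Ex3 call was lost among keratin-free (-0.36 log2, limma adjusted p = 0.192) and among keratin-bearing libraries (-0.54, 0.095). It was lost as well without wild-type liver 2 (-0.38, 0.0741), wild-type liver 3 (-0.43, 0.0555) or MYC+Ex3 liver 4 (-0.35, 0.0757). The MYC difference was called after rescaling (-0.50 log2, limma adjusted p = 0.0277), with keratin as a term (-0.45, 0.0338), without wild-type liver 4 (-0.47, 0.0363) and without MYC liver 2 (-0.51, 0.0127). RefSeq places Pklr in overlap with the channel gene Hcn3, and both were counted in the table.

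Pkm was 6.44 to 9.23 RPKM in 4-OHT livers (median 7.69), 16.0, 10.6 and 26.4 in MYC tumours and 19.5, 19.9 and 25.3 in MYC+Ex3 tumours. All 6 tumours lay above all controls. Pkm rose by 1.02 ± 0.202 log2 in MYC tumours (17.7 ± 8.04 against 7.70 ± 1.07 RPKM, SD, n = 3 and 7, limma adjusted p = 0.000967) and by 1.37 ± 0.202 in MYC+Ex3 tumours, 2.59-fold (21.5 ± 3.22 RPKM, adjusted p = 5.16e-05). Both calls held in every alternative run and without any single library. Between the tumours the difference was 0.35 log2 and was not called.

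Pklr was 23.7 to 30.2 RPKM in 4-OHT livers (median 26.5), 32.2, 10.3 and 11.5 in MYC tumours and 19.1, 18.0 and 16.9 in MYC+Ex3 tumours. MYC tumour 1 lay above all controls and MYC tumours 2 and 3 below them, while the 3 MYC+Ex3 tumours lay together below all controls. Pklr fell by 0.72 ± 0.242 on the log2 scale in MYC tumours (18.0 ± 12.3 against 26.8 ± 2.20 RPKM, SD, n = 3 and 7, limma adjusted p = 0.0229), a call lost without MYC tumour 2 (-0.44, 0.156) or MYC tumour 3 (-0.51, 0.145). It was lost too against the S14 livers alone (-0.71, 0.0811) and the S15 livers alone (-0.74, 0.11). In MYC+Ex3 tumours the difference was -0.55 log2 (18.0 ± 1.08 RPKM, limma adjusted p = 0.0647), called when only those groups were fitted (adjusted p = 0.000302). Between the tumours Pklr differed by 0.18 log2, not called, and by 0.67 without MYC tumour 1 (limma, adjusted p = 0.00621).

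As a share of the summed RPKM of both pyruvate kinase genes, Pkm had a median of 14.2% in wild-type livers (8.13% to 16.4%), 14.1% in Ex3 livers, 28.2% in MYC livers (14.5% to 39.3%) and 20.4% in MYC+Ex3 livers (17.3% to 45.8%). The MYC+Ex3 livers did not overlap the wild-type livers on this share, and the MYC livers did. In the tumour arm it was 22.7% in 4-OHT livers (17.7% to 28.0%), 50.6% in MYC tumours (33.1% to 69.6%) and 52.5% in MYC+Ex3 tumours (50.5% to 59.9%). All tumours lay above all controls, and Pkm passed Pklr in all 3 MYC+Ex3 and in 2 of 3 MYC tumours. These shares are descriptions and were not tested. Over the 20 short-term livers Pkm and Pklr correlated with r = -0.76, and over the 13 libraries of the tumour arm with r = -0.59, both across libraries that share groups and differ in depth.

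**Figure D4:**
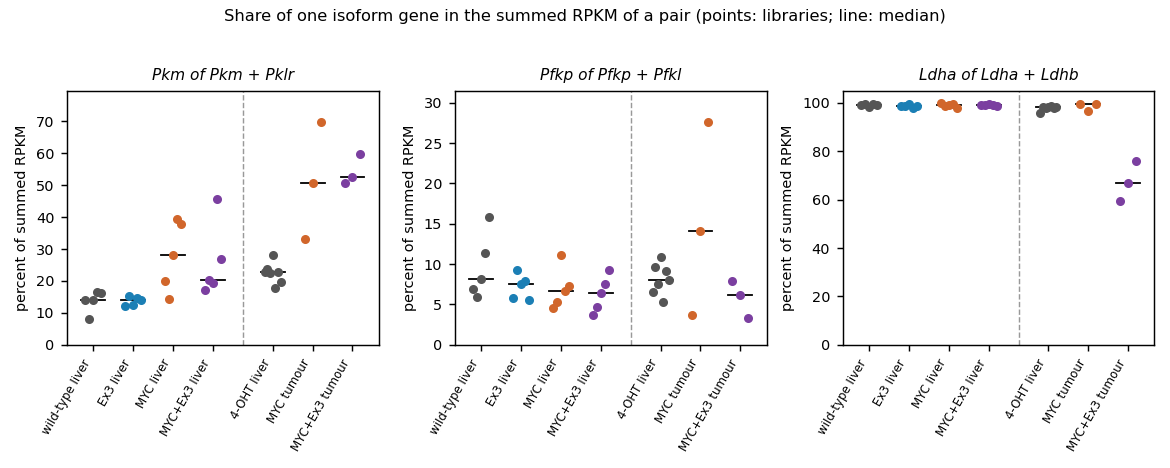
Share of the summed RPKM of an isoform pair (vertical axis, percent) that the first gene of the pair takes, by library and group, with the median marked. The Pkm median moves from 22.7% in 4-OHT livers to 50.6% and 52.5% in the tumours, and the Ldha median is 66.9% in MYC+Ex3 tumours and above 98% in the other groups.

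Factors known to act on these genes were looked up from lists. Ptbp1 and Srsf3 make splicing factors, of which the first is known to favour the M2 exon of Pkm. Ptbp1 rose by 0.57 log2 in MYC livers (limma, adjusted p = 0.00381), 0.58 in MYC+Ex3 livers (0.00296), 0.45 in MYC tumours (0.00336) and 0.70 in MYC+Ex3 tumours (6.99e-05). Srsf3 rose by 0.64 and 0.53 log2 in these livers and by 0.72 and 0.94 in these tumours. Of the 4 splicing genes on the list 3 were called in MYC livers, 2 in MYC+Ex3 livers, and all 3 that were tested in each kind of tumour, beside 22.3%, 24.1%, 49.8% and 60.6% of all genes in these comparisons. Mlxipl, which makes ChREBP, fell by 0.67 on the log2 scale in MYC tumours (limma, adjusted p = 0.00048) and by 1.03 in MYC+Ex3 tumours (7.21e-06). Txnip, a known ChREBP target that limits glucose uptake, fell by 0.70 log2 in MYC livers (adjusted p = 0.0178, limma) and by as much in MYC+Ex3 livers (0.0176). The differences of Mlxipl in these livers were -0.28 and -0.09 log2, neither called. In the tumour arm Txnip was at 16.2 to 23.3 RPKM in 4-OHT livers, at 27.7, 21.3 and 10.9 in MYC tumours and at 15.2, 31.9 and 37.0 in MYC+Ex3 tumours, on both sides of the controls in each kind, and was called in neither (-0.09 and 0.39 log2). Of the 4 factors on that list 1 was called in MYC livers, 2 in MYC+Ex3 livers and 1 in each kind of tumour, all of them lower. Of all genes 5.36%, 6.18%, 13.7% and 18.4% were called lower in MYC livers, MYC+Ex3 livers, MYC tumours and MYC+Ex3 tumours. In the keratin-free libraries the MYC liver calls were lost for Ptbp1 (0.43, 0.117), Srsf3 (0.67, 0.0517, and 0.64, 0.0539 with only those groups fitted) and Txnip (-0.57, 0.0559), and Srsf3 in MYC+Ex3 livers was lost there (0.57, 0.0822) and after rescaling (0.45, 0.0871). Txnip lost the MYC call without wild-type liver 4 (-0.61, 0.0521) or MYC liver 4 (-0.52, 0.0593). It lost the MYC+Ex3 call without wild-type liver 4 (-0.61, 0.0517) or MYC+Ex3 livers 1 (-0.62, 0.0531) or 2 (-0.57, 0.0633) and among keratin-bearing libraries (-0.40, 0.192). Srsf3 lost the MYC+Ex3 call without wild-type livers 2 (0.49, 0.06) or 3 (0.41, 0.0788) or MYC+Ex3 livers 3 (0.48, 0.0558) or 4 (0.50, 0.0569).

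Ldha, which makes the subunit that favours lactate, was called in no comparison. Its intervals are for RPKM as deposited. They do not bound a difference in its RNA, since its reads followed library depth only weakly. Wild-type livers held 151, 139, 138, 183 and 173 RPKM and MYC livers 157, 138, 175, 188 and 125. Ex3 livers held 149, 136, 173, 164 and 185 and MYC+Ex3 livers 136, 129, 206, 164 and 174. The groups overlapped throughout. The difference was -0.01 log2 in MYC livers (95% interval -0.29 to 0.27) and 0.03 in MYC+Ex3 livers, and its sign changed with the scaling and with single libraries. The files limit what can be read for this gene. Its log2 reads rose by 0.31 per log2 of library depth in the short-term livers and by 0.45 in the tumour arm. Those of other abundant genes did likewise, so RPKM of Ldha was lower in deeper libraries. The same slope in the short-term livers was 2.29 for Pkm, 2.07 for Pfkl, 1.76 for Aldoa and 0.94 for Pklr, and in the tumour arm it was 4.51 for Pfkp, 2.86 for Hk2, 1.52 for Pfkl, 1.26 for Pkm, 0.90 for Aldoa and -0.71 for Pklr. For Hk1 it was 3.09 in the short-term livers and 3.21 in the tumour arm. RPKM of these genes thus moved with depth within groups too. Depth also differed between groups of the tumour arm, with 6.65 to 8.59 M reads in 4-OHT livers. It was 6.67, 9.56 and 9.82 M in MYC tumours 1, 2 and 3 and 7.86 to 9.30 M in MYC+Ex3 tumours. The part of depth in the differences of these genes was not tested. Ldha had 1199 to 1824 reads in the short-term livers.

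Ldha was 22.9 to 29.3 RPKM in 4-OHT livers (median 28.4), 34.1, 24.7 and 27.9 in MYC tumours and 28.0, 33.3 and 36.3 in MYC+Ex3 tumours. The groups overlapped. The difference was 0.12 log2 in MYC tumours (95% interval -0.16 to 0.41) and 0.30 in MYC+Ex3 tumours (limma, adjusted p = 0.0711). After rescaling these were -0.09 and 0.07. The latter was called when only those groups were fitted (0.30 log2, adjusted p = 0.0467) and without MYC+Ex3 tumour 1 (0.40, 0.0412), by limma.

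The other lactate dehydrogenase subunit was high in one kind of tumour. Ldhb, the heart form, was 0.382 to 1.21 RPKM in 4-OHT livers (median 0.469), 0.162, 0.878 and 0.189 in MYC tumours and 19.2, 16.5 and 11.4 in MYC+Ex3 tumours, on 901, 635 and 456 reads. All MYC+Ex3 tumours lay far above every other library of the arm. It entered the test only through them, since 1 of the 7 4-OHT livers and 0 of the MYC tumours reached 1 RPKM. Its differences and calls are therefore given as descriptions and are not counted as support. Ldhb rose by 3.39 ± 0.192 log2, 10.5-fold on this scale, in MYC+Ex3 tumours (15.7 ± 3.94 against 0.586 ± 0.293 RPKM, SD, n = 3 and 7, limma adjusted p = 1.82e-08). Between the tumours it differed by 3.58 ± 0.227 log2, 11.9-fold (limma, adjusted p = 6.01e-07), and both calls held in every alternative and without any single library. The share of Ldha in the summed RPKM of both subunits was at a median of 98.3% in 4-OHT livers, 99.3% in MYC tumours and 66.9% in MYC+Ex3 tumours (59.3% to 76.0%). In the short-term arm this share was 98.6% to 99.2% at the median in every group, Ex3 and MYC+Ex3 livers included.

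The order of the members by level was alike in the control livers of both arms. In wild-type livers the mean was 119 RPKM for Pklr, 67.8 for Aldoa, 18.5 for Pkm and 11.0 for Pfkl, with Ldha (138 to 183) overlapping Pklr at the top. Pkm and Pfkl overlapped each other below Aldoa, and Hk2, Pfkp and Hk1 near 1 overlapped at the bottom. In 4-OHT livers Ldha and Pklr overlapped at the top, followed by Aldoa, whose range (16.8 to 23.5) reached into that of Ldha (22.9 to 29.3). In MYC+Ex3 tumours Aldoa (29.6 to 38.0) and Ldha (28.0 to 36.3) overlapped at the top, and Pkm (19.5 to 25.3), Pklr (16.9 to 19.1) and Pfkl (13.8 to 19.8) followed. There Hk2 (3.94 to 6.39) stood above Pfkp and Hk1.

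Among 29 other genes of glucose uptake, glycolysis and lactate export, the share called against control livers was near or below that of all genes. Of them Pgam1, Eno1 and Eno3 were called higher in both the MYC and the MYC+Ex3 livers and again in both kinds of tumour. In MYC livers 4 of the 27 tested rose and 0 fell, beside 22.3% of all genes called (16.9% higher and 5.36% lower). These were the glucose transporter Slc2a1 (0.98 log2, limma adjusted p = 0.00824), the mutase Pgam1 (0.52, 0.000929) and the enolases Eno1 (0.65, 0.0284) and Eno3 (1.04, 0.00468). In MYC+Ex3 livers 5 rose and 1 fell, beside 24.1% of all genes (17.9% higher and 6.18% lower). Slc2a1 (0.75, 0.0375), the kinase Pfkfb3 (0.68, 0.0456), Pgam1 (0.55, 0.000541), Eno1 (0.74, 0.0126) and Eno3 (1.26, 0.000817) rose, and the regulator Gckr fell (-0.43, 0.0264), all by limma. In Ex3 livers 0 of them were called by limma, and 2 had an unadjusted p under 0.05. Against Ex3 livers, MYC+Ex3 livers had 4 of the 27 higher (Pgam1, Eno1, Eno3 and Slc16a3) and 1 lower (Aldoc). This stands beside 21.1% of all genes called (16.4% higher and 4.7% lower). Slc16a3 stood at 0.288 and 0.435 RPKM in wild-type livers 1 and 2, on 4 and 5 reads, and its call is not counted as support. In the keratin-free libraries of MYC livers none of the 4 was called, with 0.86 log2 for Slc2a1 (adjusted p = 0.181), 0.31 for Pgam1 (0.192), 0.34 for Eno1 (0.402) and 0.54 for Eno3 (0.269). In MYC+Ex3 livers Slc2a1 (0.77, 0.214) and Pgam1 (0.40, 0.0935) were not called among keratin-free libraries. Among keratin-bearing ones Slc2a1 (0.73, 0.108), Pfkfb3 (0.46, 0.399), Eno1 (0.64, 0.0775) and Gckr (-0.32, 0.27) were not. Slc2a1 and Pfkfb3 lost the call with no filter (adjusted p of 0.0583 and 0.0707 by limma) and with the sex covariate (0.0525 and 0.091), Pfkfb3 after rescaling (0.0838), and Gckr with the sex covariate (0.0543) and with only those groups fitted (0.0531). Eno1 in MYC livers lost it after rescaling (0.0539), with keratin as a term (0.0515) and with only those groups fitted (0.0617). Single libraries decided other calls, by limma. Slc2a1 in MYC+Ex3 livers had adjusted p of 0.0634 to 0.0982 without wild-type livers 4 or 5 or MYC+Ex3 livers 1, 2, 4 or 5. Pfkfb3 had 0.0582 to 0.114 without wild-type livers 1, 2, 3 or 5 or MYC+Ex3 livers 1, 2 or 3. Gckr had 0.0603 to 0.0801 without wild-type livers 1 or 2 or MYC+Ex3 livers 2 or 4. Eno1 in MYC livers had 0.0604 to 0.0861 without wild-type livers 4 or 5 or MYC livers 1, 2 or 4.

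In MYC tumours 5 of the 25 tested rose (Gpi1, Pgam1, Eno1, Eno3 and the lactate transporter Slc16a1) and 3 fell (Hk3, Gckr and Pfkfb2). This stood beside 49.8% of all genes called (36.2% higher and 13.7% lower). In MYC+Ex3 tumours 13 rose and 3 fell, beside 60.6% (42.3% higher and 18.4% lower). Of the 13, Slc2a3, Ldhb and Slc16a3 entered the test only through the tumours, since 0 to 1 of the 7 4-OHT livers reached 1 RPKM of them, and are not counted as support. Among those that rose were Slc2a1 (1.01 log2, limma adjusted p = 0.01), the lactate transporters Slc16a1 (0.93, 0.000355) and Slc16a3 (1.41, 0.0223), Bpgm (0.97, 0.000623), which makes the bisphosphoglycerate of red cells, and Pdk4 (2.41, 3.32e-05), which makes a kinase that shuts pyruvate dehydrogenase. Slc2a1 and Slc16a3 lost the call without MYC+Ex3 tumour 3 (0.62 log2, limma adjusted p = 0.0998, and 0.84, 0.185). Slc16a3 lost it against the S14 (1.36, 0.0823) and S15 livers alone (1.49, 0.0957), and Slc2a1 against the S15 livers (0.95, 0.0763). Between the tumours 3 of the 25 were called by limma, Ldhb, Bpgm and Pdk4, all higher in MYC+Ex3 tumours, beside 4.13% of all genes. Ldhb entered this test too only through the MYC+Ex3 tumours and is not counted as support, which leaves Bpgm and Pdk4. Beside Bpgm stand the red cell markers given for Hk1, whose part was not tested.

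**Figure D5:**
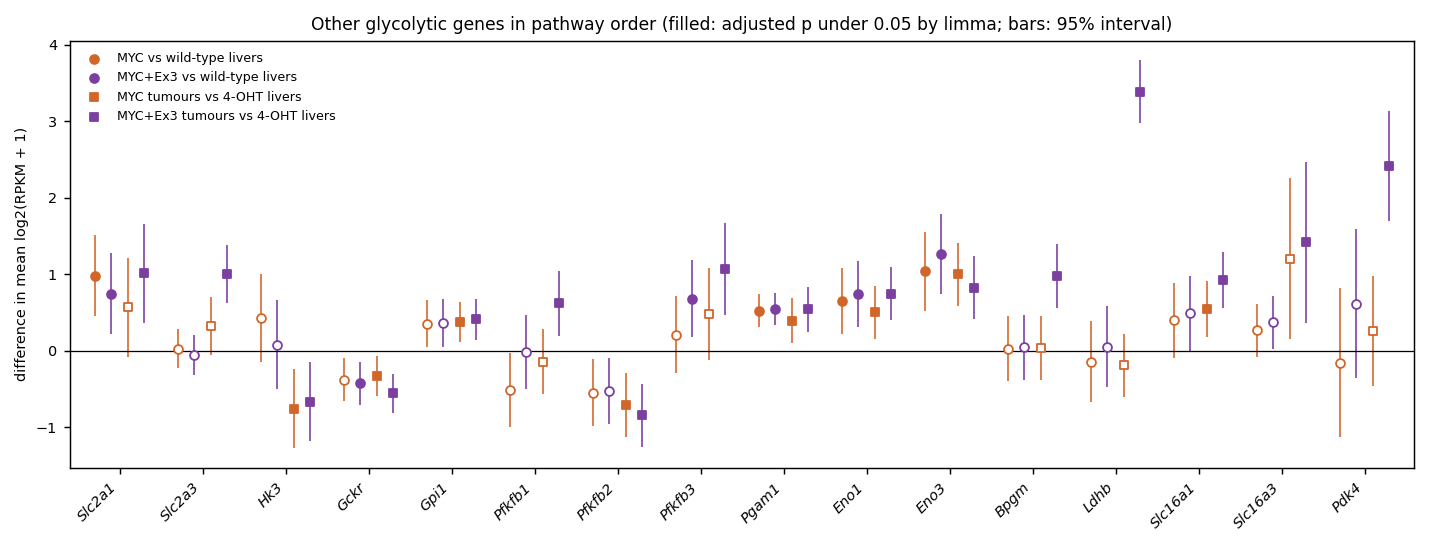
Difference in mean log2(RPKM + 1) from the control livers (vertical axis) with 95% intervals for 16 other genes of glucose uptake, glycolysis and lactate handling in pathway order (horizontal axis), in MYC and MYC+Ex3 livers (circles) and tumours (squares), with filled points for an adjusted p under 0.05 by limma. Pgam1, Eno1 and Eno3 are filled in all 4 comparisons, and Ldhb and Pdk4 stand highest in MYC+Ex3 tumours.

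The 3 genes whose levels followed each member most closely were named by Pearson correlation of log2(RPKM + 1) over the 20 short-term livers, among genes with a mean of at least 5 RPKM. Such correlations rest on libraries that share groups, depth and keratin content. Pkm was closest to Lgals3 (r = 0.93), Capg (0.92) and Ehd4 (0.90). Pklr was closest to Hcn3 (0.91), the gene that overlaps it, and then to Slc35e2 (0.83) and Mgam (0.83). Pfkl was closest to Hdac3 (0.96), Xrcc1 (0.94) and Nacc1 (0.94), and Ldha to Prdx1 (0.96), Ndufa4 (0.95) and Txn1 (0.94). Aldoa was closest to Setd6, Trim47 and Eif1ad (each 0.89). Over the 13 libraries of the tumour arm Pklr was closest to Ldhd (0.95), Ugt1a6a (0.94) and Me1 (0.94), and Hk2 to Slc1a5 (0.97), Gpc3 (0.96) and Mapk3 (0.95). Hk1 was closest there to Cd24a (0.95), Chil3 (0.92) and S100a9 (0.92), and Pfkp to Pld3 (0.88), Mcam (0.85) and Agfg1 (0.84).

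The authors' deposited table also holds their own comparisons. For MYC livers the authors' deposited table called 2 members, Pkm with 0.746 log2 (adjusted p = 0.0134) and Pklr with -0.48 (0.0425), where the fit described above called Pkm and Aldoa, and 20.5% of all genes were called there. In MYC+Ex3 livers the authors' deposited table called Pfkl (0.651, 0.041) and Pklr (-0.538, 0.0145), beside 27.8% of all genes. It called 5 members in MYC tumours, Pfkp with 1.98 log2 (0.000128) among them, beside 44.5% of all genes in the authors' deposited table. In MYC+Ex3 tumours the authors' deposited table called 7, all but Ldha, beside 60.7% of all genes. Between the tumours the authors' deposited table called 0 members, beside 4.49% of all genes, and gave Hk2 1.02 log2 (0.0541).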

How the data were processed

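RNA from liver tissue was made into strand-specific libraries with a TruSeq total RNA kit, per the labels' protocols. The submitters' processing notes name TopHat2 2.0.8, TopHat, SAMtools, featureCounts 1.4.5-p1, DESeq2 and the build mm9, without their order, and the strand setting of counting is not given in the sources used here. The authors deposited RPKM per gene and library, and, per the file headers, a log2 fold change and an adjusted p-value for each of their comparisons. Within a gene the deposited RPKM were whole multiples of 1 read for all 20485 genes above 0 (tolerance 0.01), which gave the reads quoted, and 1186 genes were at 0 in every library. 0 columns belonged to a sample outside the series.

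The main test was limma 3.58.1 in R 4.3.3 on log2(RPKM + 1). It was two-sided, its variances were moderated with a trend on mean level, and p-values were adjusted over all tested genes after Benjamini and Hochberg. Genes entered a fit when 3 or more of its libraries had an RPKM of at least 1. The 20 short-term livers were fitted together, and the 13 libraries of the tumour arm together, for 9 comparisons. Other values were computed with Python 3.11.15, numpy 2.4.6 and pandas 2.3.3. The scripts were tested on simulated data.

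Alternatives were a pseudocount of 0.1, no filter, a filter at 5 RPKM, rescaling by median ratios, a sex covariate, a fit of the compared groups only, keratin as a term or a split, 4-OHT livers of each animal number series (S14 and S15), and leaving out each library. Sex was read from Ddx3y against Xist and not from a label. Males so read were 2 wild-type, 3 Ex3, 3 MYC and 4 MYC+Ex3 livers. They were 4 of the 4-OHT livers, 3 MYC tumours and 2 MYC+Ex3 tumours. MYC liver 5, which carried both transcripts, was set as female. Genes named in the text are the 8 members, genes of lists on glycolysis, its regulators and cell types, and the 3 genes closest to each member. A few genes of these lists are not reported here. The members and lists were chosen with earlier results of these data known. Each library title carries its own animal number, and no animal is shared between libraries as far as the titles show. Promoters came from RefSeq (GRCm38.p6).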

Additional observations from a re-analysis of the deposited data

Results flagged for a closer look

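A library was marked where its gap to the nearest of its group was large against the range of the group, in groups of 4 to 10 libraries, for the 8 members and Ldhb. This held in 5 of 45 groups, and chance marks about 1 in 20. In MYC liver 5, Hk1 was at 3.33 RPKM, beside 0.815 in the next highest MYC liver, and Hk2 at 4.23, beside 1.40. In MYC+Ex3 liver 4, Hk2 was the highest of its group at 2.42 RPKM, beside 0.979, and Pklr the lowest at 60.3, beside 87.6. In 4-OHT liver 1, Ldhb was at 1.21 RPKM, beside 0.673 in the next highest.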

How the results depend on the processing

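Of 325 values under other settings, for those single-gene differences of the members that the report discusses, 287 kept their direction and side of the threshold, 17 lost the call, 12 gained it and 9 changed sign. With single libraries left out the numbers were 364, 18, 19 and 20 of 421. Counts of members called moved as follows. In MYC livers 2 became 1 with no filter, 1 with only the groups compared, 0 in keratin-free libraries, and 0 to 3 without single libraries. In MYC+Ex3 livers 1 became 2 with the filter at 5 RPKM, 3 with keratin as a term, 0 among keratin-bearing libraries, and 0 to 3 without single libraries. In MYC+Ex3 against Ex3 livers 0 became 1 with only the groups compared, 1 with keratin as a term, and 0 to 1 without single libraries. In MYC tumours 5 became 6 with the sex covariate, 4 at 5 RPKM or with only the groups compared, 3 against the S14 livers, 3 against the S15 livers, and 3 to 7 without single libraries. In MYC+Ex3 tumours 5 became 6 with only the groups compared, 4 against the S14 or the S15 livers, 3 at 5 RPKM, where fewer genes were tested, and 4 to 5 without single libraries. Between the tumours 1 became 0 with no filter, 0 at 5 RPKM, 0 with only the groups compared, and 0 to 2 without single libraries. The cause of these moves was not tested.

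Over all 72 differences of the members, the sign changed under another setting for 17 and without a single library for 23, of which 0 were called. Those discussed are given here. Ldha in MYC livers was 0.12 log2 with keratin as a term and 0.0319 in keratin-free libraries (-0.0768 to 0.0689 without single libraries). In MYC+Ex3 livers it was -0.0489 rescaled and -0.12 in keratin-free libraries (-0.0587 to 0.11). In MYC+Ex3 against MYC livers it was -0.0843 with the term and -0.15 in keratin-free libraries (-0.0517 to 0.11), and in MYC tumours -0.0905 rescaled. Pfkp in MYC+Ex3 livers was -0.0348 in keratin-free libraries (-0.0189 to 0.15), and the interaction of Pfkl 0.32. Without single libraries Hk1 in MYC livers ran from -0.14 to 0.30 and the interaction of Pklr from -0.0526 to 0.16. Between the tumours Aldoa ran from -0.10 to 0.12 and Pklr from -0.10 to 0.67.

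Over all genes, the 18 calls in Ex3 livers became 31 with the sex covariate, 27 with keratin as a term and 2 in keratin-free or keratin-bearing libraries. The 3047 in MYC livers became 1249 in keratin-free libraries, and the 2893 in MYC+Ex3 against Ex3 livers 1668 in keratin-bearing ones. The 26 in MYC+Ex3 against MYC livers became 6 in keratin-free libraries and ran from 10 to 39 under other settings and from 7 to 37 without single libraries. Without single libraries the 18 ran from 5 to 19 and the 489 between the tumours from 199 to 764. At 5 RPKM the 5907, 7189 and 489 of the tumour arm became 3636, 4278 and 240, and the last 70 with only the tumours fitted. A fit of keratin-bearing MYC livers could not be made, since there was 1 such library. No paired analysis was possible because replicate numbers only name the libraries and no animal number is shared between groups. Low read numbers limit Hk1, Hk2 and Pfkp.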
